A study of Mus musculus with 18 samples.

Results

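NaF mouse mammary carcinoma cells that received all-trans retinoic acid were compared with cells of the same line that received none. The retinoic acid group held 3 arrays of cells kept for 48 h in DMEM with 10% charcoal-treated fetal bovine serum and then given the ligand at 1 µM for 6 h. The charcoal control group held 3 arrays of cells in the same charcoal-treated serum, and the labels name no vehicle. These 6 arrays are 6 of the 18 in the series. The other charcoal-serum groups, 3 arrays each, received the synthetic retinoic acid receptor agonist TTNPB or the PPARδ agonist GW1516, and 6 arrays came from cells in full medium with or without palmitate. Charcoal treatment strips serum of small lipophilic molecules, retinoids among them, so all 4 charcoal-serum groups share that starved background. Every one of the 22180 genes that a probe set named singly entered the comparison, with 1 probe set for each gene. The labels do not say whether the arrays of a group came from separate cultures, so the p-values measure the spread between arrays only, and their number limits the precision.

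Retinoic acid is the hormone form of vitamin A. It binds the retinoic acid receptors RARα, RARβ and RARγ, which sit on DNA as heterodimers with RXR. Ligand exchanges corepressors for coactivators at direct repeats of the receptor's recognition motif. Cyp26 enzymes, which degrade the hormone, and Rarb itself are classical direct targets. In mammary cells the hormone is known for slowing growth and favouring differentiation, and part of it can reach PPARδ by way of Fabp5.

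The cell identity was read from its markers. Krt18, an epithelial keratin, averaged 8.05 ± 0.09 with retinoic acid and 7.99 ± 0.05 in control on the log2 scale of the deposited values (SD, n = 3 each). Cdh1, the epithelial cadherin, averaged 5.46 ± 0.15 with retinoic acid and 4.88 ± 0.06 in control (adjusted p = 0.159). Krt8 and Epcam lay only just above background, and Krt7 and Esr1 lay at it. In all, 12 of 25 mammary epithelial genes were above background. Of the 46 marker genes of T cells, macrophages, endothelium, fibroblasts and adipocytes none passed the limma test, and 2 had an unadjusted p under 0.05. Their summed log2 values were 8.24 to 9.45 with retinoic acid against 8.74 to 9.16 in control for T cells, and 15.6 to 16.3 against 15.9 to 17.2 for endothelium. For macrophages, with 4 of 11 markers above background, they were 11.1 to 12.8 with retinoic acid against 12.5 to 13.6 in control. For fibroblasts, with 4 of 9, they were 13.4 to 14.6 with retinoic acid against 12.6 to 13.6 in control, and for adipocytes, with 3 of 8, 10.2 to 11.4 against 10.2 to 10.5. Their part in the results below was not tested. Among 9 endothelial markers only Cdh5 was above background, at 8.73 ± 0.05 with retinoic acid and 8.90 ± 0.09 in control, while Pecam1 lay at background in both.

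To separate bright from dim genes, background was set in each group at the 95th percentile of the mean values of 1394 olfactory and vomeronasal receptor genes, which was 1.15 with retinoic acid and 1.31 in control. A gene above that level in neither group was counted as at background, which held for 10223 genes. The others were divided at the median of their 6-array mean, 4.43, into 5979 dim and 5978 bright genes. Bright and dim describe probe set signal, which does not rank genes by RNA abundance. A lower value in a whole culture may come from fewer cells that carry an RNA or from less of it in each cell, which these arrays cannot tell apart.

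After 6 h of retinoic acid, 1174 genes, 5.29% of those tested, passed an adjusted p of 0.05 in a moderated linear model. Of these 848 rose (3.82%) and 326 fell (1.47%). Bright genes changed most often, with 618 rises (10.3%) and 260 falls (4.35%), 878 calls or 14.7% in all, so that 70.4% of the bright calls were rises. Dim genes gave 229 rises (3.83%) and only 46 falls (0.769%), 275 calls or 4.6% in all, so that 83.3% of the dim calls were rises. At background 1 gene rose (0.00978%) and 20 fell (0.196%). The median rise was 0.63 among bright and 0.78 among dim calls, and the median fall was -0.53 among bright and -0.66 among dim calls. More than 2-fold rises numbered 60 among bright and 56 among dim genes, against 19 and 4 falls of that size. Without retinoic acid replicate 1, retinoic acid replicate 2 or charcoal control replicate 2 the total was 627, 583 or 665, with 336, 287 or 301 bright and 129, 116 or 114 dim rises. Bright falls numbered 140 to 149 without any 1 of the arrays other than charcoal control replicate 2, and dim falls 17 or 24 without retinoic acid replicate 1 or 2. The total was 2015 without GW1516 replicate 3, an array that entered only the estimate of spread and lay farther from its group mean than any other. Rises made up 57.9% of calls after quantile normalization and 88.0% after centring each array on its median, against 72.2% on the values as deposited.

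**Figure D1:**
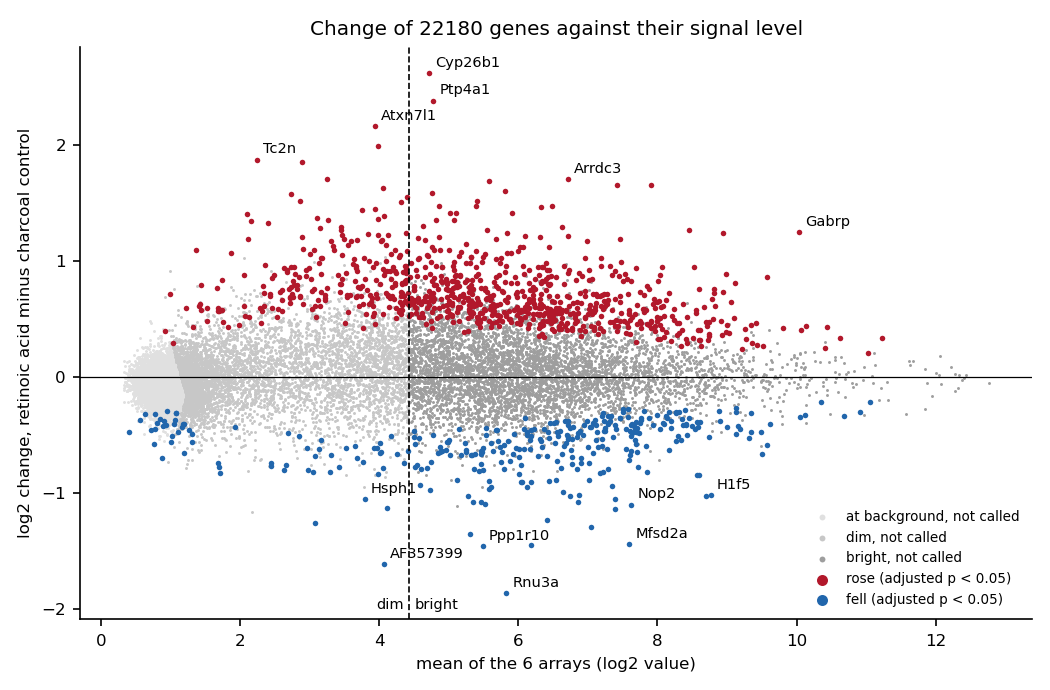
Log2 change with retinoic acid relative to charcoal control (vertical axis) against the mean log2 value of the 6 arrays (horizontal axis) for 22180 genes, with genes past an adjusted p of 0.05 in red (rose) and blue (fell) and a dashed line at 4.43 between dim and bright genes. Rises outnumber falls on both sides of the line, 229 to 46 among dim and 618 to 260 among bright genes, and few genes at background are coloured.

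The sequences printed here are the promoters of 4 genes, each standing for 1 gene group below, and the microRNA that rose most. The promoters run from 250 bases before to 50 after the start of the gene in RefSeq (build GRCm38.p6), printed 5′ to 3′ on the strand of the gene, with a motif in capitals. Motifs were searched on both strands of 32851 RefSeq promoters. Rarb stands for the receptor's own targets, and its capitals mark a DR5 element, a direct repeat of the receptor's recognition motif, beginning at -53 and present in 0.0974% of promoters. Asns stands for the amino acid response, with the letters TGATGNAA at -23 (3.97% of promoters). Mcm5 stands for DNA replication, with TTTCGCGC at -153 overlapping TTTGGCGC on the other strand (either one in 0.813%). Kif11 stands for mitosis, with TTTGAA on the other strand at -19 (17.9%). Both arms of miR-130a are printed with the seed, bases 2 to 8, in capitals.
Rarb, chr14:16575427-16575726, minus strand: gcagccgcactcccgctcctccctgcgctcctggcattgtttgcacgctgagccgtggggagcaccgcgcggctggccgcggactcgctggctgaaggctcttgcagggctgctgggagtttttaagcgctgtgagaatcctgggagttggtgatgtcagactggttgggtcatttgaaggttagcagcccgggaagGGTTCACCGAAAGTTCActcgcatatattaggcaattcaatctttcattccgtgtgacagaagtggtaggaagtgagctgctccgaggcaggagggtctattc
Asns, chr6:7693160-7693459, minus strand: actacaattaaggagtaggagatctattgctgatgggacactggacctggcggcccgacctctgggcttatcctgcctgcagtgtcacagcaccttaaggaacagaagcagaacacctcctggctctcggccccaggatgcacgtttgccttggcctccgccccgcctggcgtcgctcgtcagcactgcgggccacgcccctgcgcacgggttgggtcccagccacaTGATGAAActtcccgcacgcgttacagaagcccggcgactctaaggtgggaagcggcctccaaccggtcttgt
Mcm5, chr8:75109259-75109558, plus strand: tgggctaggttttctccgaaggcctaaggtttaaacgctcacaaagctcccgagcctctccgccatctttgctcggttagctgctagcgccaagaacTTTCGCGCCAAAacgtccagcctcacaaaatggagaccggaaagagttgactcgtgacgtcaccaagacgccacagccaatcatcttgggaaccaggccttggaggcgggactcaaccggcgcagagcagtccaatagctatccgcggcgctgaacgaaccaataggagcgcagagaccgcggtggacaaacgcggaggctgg
Kif11, chr19:37376132-37376431, plus strand: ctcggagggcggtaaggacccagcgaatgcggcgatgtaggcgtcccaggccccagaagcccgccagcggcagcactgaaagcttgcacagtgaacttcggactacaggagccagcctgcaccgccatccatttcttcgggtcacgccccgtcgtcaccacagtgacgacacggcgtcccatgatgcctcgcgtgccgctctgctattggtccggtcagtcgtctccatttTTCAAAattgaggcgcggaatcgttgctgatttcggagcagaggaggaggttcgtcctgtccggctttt
mmu-miR-130a-3p, chr2:84741116-84741137, minus strand: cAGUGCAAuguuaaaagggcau
mmu-miR-130a-5p, chr2:84741155-84741176, minus strand: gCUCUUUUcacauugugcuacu
A match names letters and not a bound site, and a promoter without the letters says nothing of the factor.

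Retinoic acid's own feedback loop was among the steepest changes. Cyp26b1, the enzyme that clears retinoic acid, measured 6.21, 6.06 and 5.83 with retinoic acid and 3.41, 3.10 and 3.71 in control, a 6.15-fold rise (log2 change 2.62 ± 0.17 SE, adjusted p = 4.88e-08). The groups lay far apart. Rarb, whose promoter is printed above, measured 4.28, 4.07 and 4.21 with retinoic acid and 3.37, 2.77 and 2.89 in control (1.18 ± 0.17, adjusted p = 0.000448). Of 23 retinoid handling genes and classical targets measured, 5 rose and none fell, the others being Nrip1, Tgm2 and Plat, while Cyp26a1 and Dhrs3 did not pass the test. None of the 36 Hox genes, well known retinoid targets in embryos, passed the limma test or an unadjusted p of 0.05, and 25 of them lay at background.

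Beyond those targets, the largest bright rises included Arrdc3 and Ehd3. Arrdc3, an alpha-arrestin that links membrane receptors to ubiquitin ligases, measured 7.55, 7.59 and 7.54 with retinoic acid and 5.69, 5.79 and 6.08 in control (1.71 ± 0.11, adjusted p = 4.88e-08). The retinoic acid arrays lay within a narrow band well above all 3 controls. Ehd3, an ATPase of endosomal recycling, measured 8.72, 8.79 and 8.70 with retinoic acid and 7.17, 7.10 and 6.98 in control, a 3.15-fold rise (adjusted p = 6.9e-08). Gabrp, a subunit of the GABA-A receptor made in breast epithelium, measured 10.65, 10.63 and 10.68 with retinoic acid and 9.39, 9.47 and 9.36 in control. Its change of 1.25 ± 0.06 had the smallest adjusted p-value of all genes tested (1.71e-09). Epha7, an ephrin receptor kinase, measured 6.70, 6.65 and 6.49 with retinoic acid and 4.81, 4.96 and 5.26 in control (1.61 ± 0.14, adjusted p = 2.47e-06). Fzd5, a Wnt receptor, measured 5.63, 5.51 and 5.50 with retinoic acid and 3.93, 3.84 and 4.12 in control, a 3.0-fold rise (adjusted p = 0.000121). Slc6a13, a transporter of GABA and taurine, measured 6.12, 6.19 and 6.17 with retinoic acid and 4.68, 4.74 and 4.50 in control (1.52 ± 0.13, adjusted p = 2.06e-06). In none of these genes did an array of one group reach the range of the other. The choice of the largest rises required that separation, so it carries no weight of its own. It was seen in 24.1% of all genes.

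Postn and Cp, both secreted proteins, belonged to the same set. Postn, the matricellular protein periostin, measured 6.48, 6.38 and 6.42 with retinoic acid and 4.73, 4.12 and 5.36 in control (1.69 ± 0.22, adjusted p = 0.000129). The controls varied over more than a log2 unit, and, as the choice required, none reached the retinoic acid arrays. Cp, the copper-carrying ferroxidase ceruloplasmin, measured 7.36, 7.16 and 7.13 with retinoic acid and 5.92, 5.40 and 5.90 in control (1.48 ± 0.16, adjusted p = 2.6e-05). Gpcpd1, which hydrolyses glycerophosphocholine, rose by 1.46 ± 0.18 (adjusted p = 7.17e-05). Nhs, the actin remodelling gene mutated in Nance-Horan syndrome, rose by 1.48 ± 0.16 (adjusted p = 2.81e-05). Ptp4a1, a prenylated tyrosine phosphatase, rose by 2.38 ± 0.33 (adjusted p = 0.000228). Mcpt-ps1 is annotated as a pseudogene of the mast cell protease family, and its rise of 1.47 ± 0.29 (adjusted p = 0.00506) cannot be told from signal of related family members.

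The largest bright falls held small RNAs, a phosphatase subunit, a lipid carrier and a Krüppel-like factor. Rnu3a, a U3 small nucleolar RNA of ribosomal RNA processing, measured 4.99, 5.03 and 4.67 with retinoic acid and 6.64, 6.96 and 6.66 in control, 3.63-fold lower (adjusted p = 0.00292). Ppp1r10, the PNUTS subunit that brings phosphatase PP1 to RNA polymerase II, measured 5.09, 4.73 and 4.47 with retinoic acid and 6.08, 6.35 and 6.23 in control (-1.46 ± 0.18, adjusted p = 8.98e-05). Mfsd2a, the sodium-dependent lysophosphatidylcholine carrier, measured 6.73, 6.97 and 6.92 with retinoic acid and 8.32, 8.35 and 8.28 in control, 2.72-fold lower (adjusted p = 2.3e-06). All 3 fell without any overlap of the arrays, which their choice required. Klf16, a Krüppel-like zinc finger factor, measured 4.58, 4.78 and 4.54 with retinoic acid and 6.11, 6.08 and 5.77 in control (-1.35 ± 0.19, adjusted p = 0.000287). Ccnjl, a cyclin J-like gene, fell by 1.14 ± 0.14 (adjusted p = 7.17e-05). The plot of the leading genes by array shows the same required separation for the other members of the 4 sets.

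**Figure D2:**
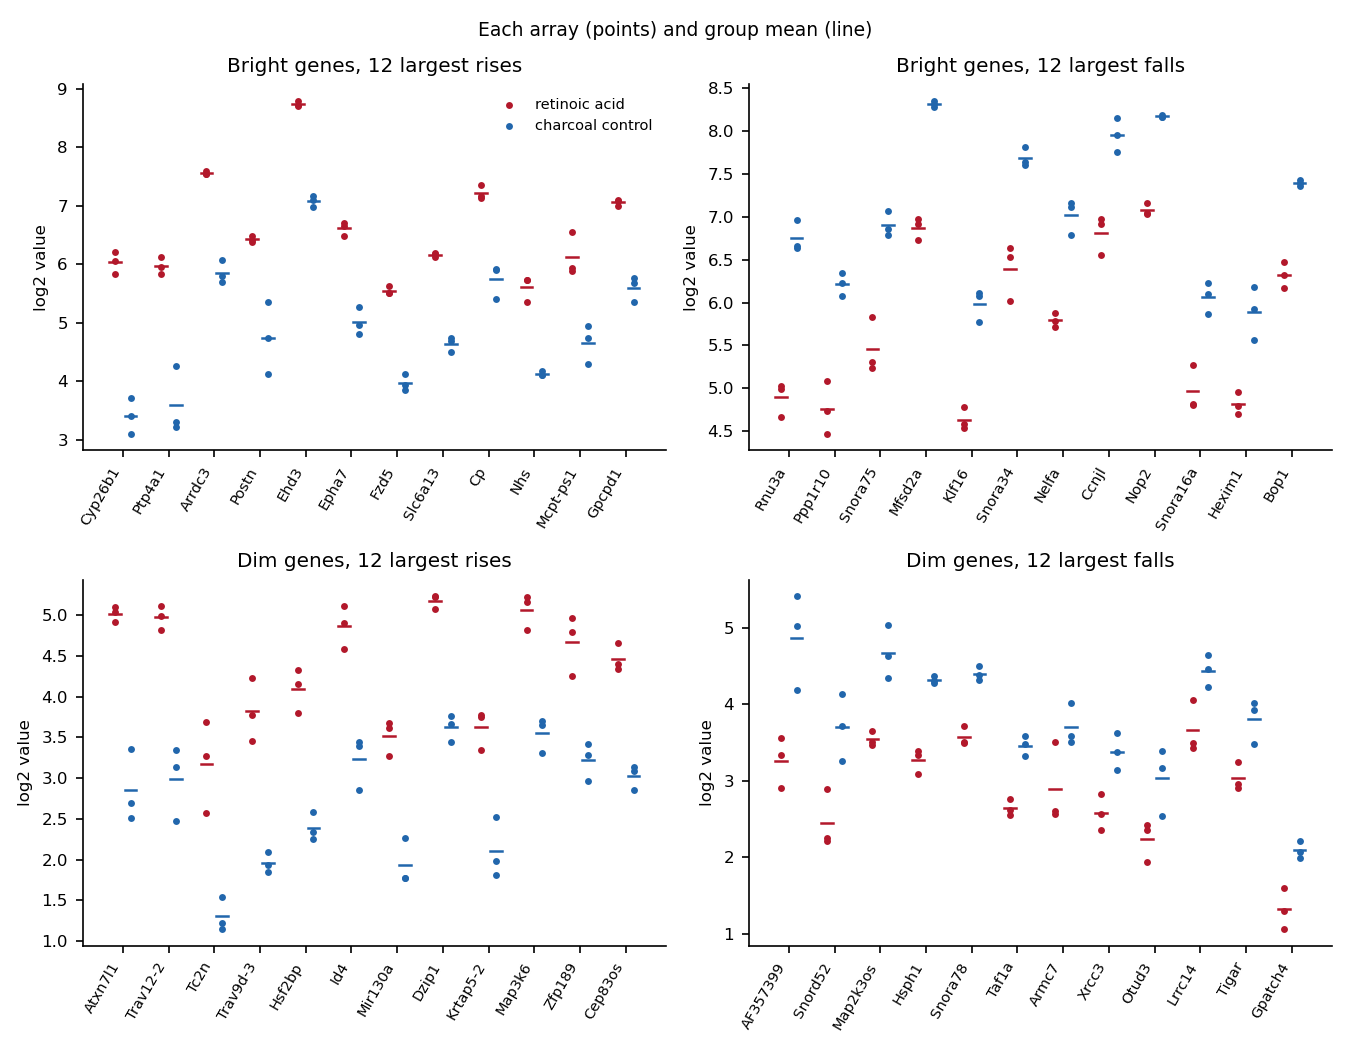
Log2 values of each array (points) and group means (lines) for the 12 largest rises and 12 largest falls among bright and among dim genes, with retinoic acid in red at the left and charcoal control in blue at the right of each gene. No gene shown has overlapping groups, which its choice required; dim rises such as Tc2n start near background (1.31 in control), and the Postn and Ptp4a1 controls spread widely.

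The largest dim rises included Id4 and Dzip1. Id4, an inhibitor of basic helix-loop-helix factors with a known part in mammary development, measured 4.90, 5.11 and 4.59 with retinoic acid and 3.40, 2.86 and 3.45 in control (1.63 ± 0.23, adjusted p = 0.000253). Dzip1, a zinc finger protein of the primary cilium, measured 5.07, 5.23 and 5.22 with retinoic acid and 3.76, 3.45 and 3.66 in control, a 2.93-fold rise (adjusted p = 5.58e-05). Map3k6, a kinase related to the stress kinase ASK1, measured 5.22, 5.16 and 4.82 with retinoic acid and 3.31, 3.65 and 3.70 in control (1.51 ± 0.20, adjusted p = 0.000145). The 3 genes passed the test under all 22 alternative settings run. Hsf2bp, a partner of heat shock factor 2 with a role in meiotic recombination, measured 4.33, 4.16 and 3.8 with retinoic acid and 2.58, 2.25 and 2.34 in control (1.70 ± 0.26, adjusted p = 0.000582). Tc2n, a tandem C2 domain protein, measured 3.69, 3.27 and 2.57 with retinoic acid, while its control values of 1.22, 1.15 and 1.54 averaged below background, so it was at least 3.65-fold higher. Zfp189, a zinc finger factor, rose by 1.45 ± 0.19 (adjusted p = 0.000152).

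Mir130a, the precursor gene of the microRNAs printed above, measured 3.61, 3.68 and 3.27 with retinoic acid and 2.27, 1.77 and 1.77 in control (1.58 ± 0.30, adjusted p = 0.00405). Of 483 microRNA genes measured, 363 lay at background and only Mir130a and Mir669a-3 rose. Such a probe set reads the precursor locus or a longer transcript across it, not the mature strand.

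Some dim rises rest on uncertain probe sets. Atxn7l1 rose by 2.16 ± 0.19 (adjusted p = 1.91e-06), whereas its 2 other probe sets changed by 0.20 and 0.29 and did not pass the test. Trav12-2 and Trav9d-3, variable segments of the T cell receptor, rose by 1.99 ± 0.31 (adjusted p = 0.000818) and 1.86 ± 0.29 (adjusted p = 0.000666). These segments have near-identical copies, the other 5 probe sets of Trav12-2 changed by -0.16 to 0.05, and Trav12-2 did not pass when its probe sets were averaged. Of 9 T cell marker genes only Ptprc was above background. Cep83os lies antisense to its namesake and rose by 1.44 ± 0.19 (adjusted p = 0.000153), and whether the probe set reads 1 strand alone was not tested.

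Dim falls were few. AF357399, a small nucleolar RNA gene, measured 3.56, 3.33 and 2.90 with retinoic acid and 5.02, 4.18 and 5.41 in control (-1.61 ± 0.34, adjusted p = 0.008). Its control arrays differed among themselves by more than 1 log2 unit. Hsph1, a large cytosolic heat shock protein, measured 3.09, 3.33 and 3.39 with retinoic acid and 4.28, 4.37 and 4.30 in control, 2.07-fold lower (adjusted p = 0.0106). Taf1a, a subunit of the RNA polymerase I selectivity factor, measured 2.62, 2.55 and 2.76 with retinoic acid and 3.48, 3.32 and 3.58 in control (-0.82 ± 0.16, adjusted p = 0.00537). Tigar, a p53 target that lowers glycolytic flux, measured 3.24, 2.96 and 2.91 with retinoic acid and 3.93, 3.48 and 4.02 in control (-0.78 ± 0.15, adjusted p = 0.00496). Cdk9, the kinase of the elongation factor P-TEFb, measured 3.43, 3.35 and 3.25 with retinoic acid and 4.05, 3.97 and 4.08 in control (-0.69 ± 0.14, adjusted p = 0.00589). Map2k3os, antisense to Map2k3, fell by 1.13 ± 0.22 (adjusted p = 0.00421), with the same doubt over strand.

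At background the single rise was Krt40, at 0.99, 1.07 and 1.31 with retinoic acid and 0.80, 0.73 and 0.64 in control, and 7 of 1390 chemosensory receptor genes fell. Between 1 and 15 of the receptor genes passed when single arrays were left out, the lowest without charcoal control replicate 2. These values lie where a probe set has no measurable signal.

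Gene groups were described by how many of their measured members passed the test, beside 3.82% rising and 1.47% falling over all genes. Many of these lists hold mostly bright genes, for which the shares were 10.3% rising and 4.35% falling, against 3.83% and 0.769% of dim genes. Bright members are therefore counted apart, and a share near these is no result about a list. Each count was also taken after 4 other scalings, which were quantile normalization, cyclic loess, centring on the array median and centring on the receptor genes, and without each of the 6 arrays. Over all genes, these scalings gave 621, 614, 659 and 633 rises in that order, against 848 as deposited. Falls over all genes were 452, 403, 90 and 102, against 326 as deposited. Without single arrays there were 404 to 691 rises and 161 to 250 falls. A change in a list count is to be read beside these totals.

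**Figure D3:**
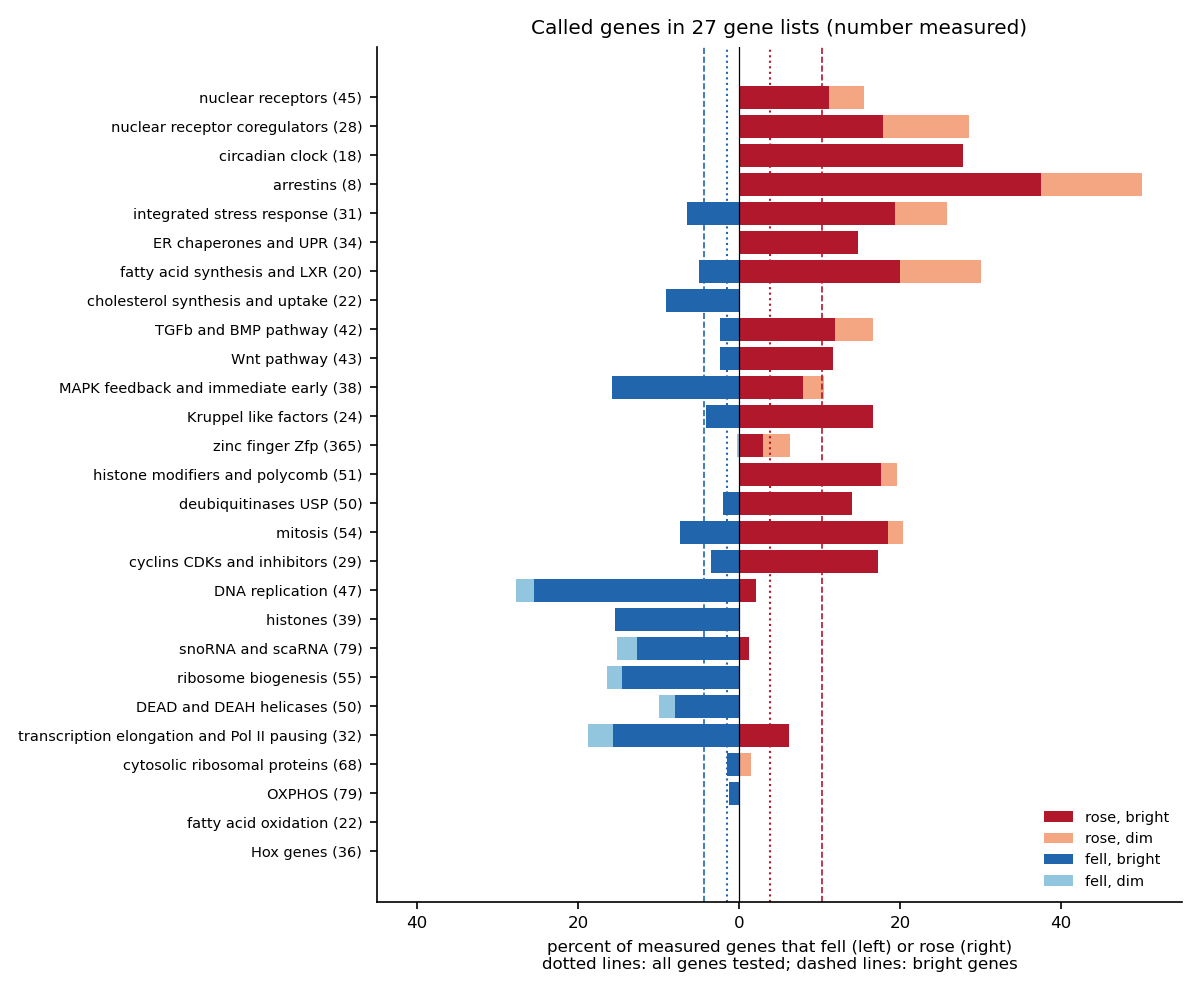
Percent of measured genes that rose (right, red) or fell (left, blue) with retinoic acid relative to charcoal control in 27 gene lists, with the number measured after each name, bright calls dark, dim calls pale, dotted lines at 3.82% and 1.47% for all genes, and dashed lines at 10.3% and 4.35% for bright genes. Arrestin, circadian and coregulator genes extend to the right, while DNA replication, ribosome biogenesis, snoRNA and elongation genes extend to the left.

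Nuclear receptors and their coregulators gave rises in both ranges. Of 45 nuclear receptor genes 7 rose (5 of 14 bright, 2 of 13 dim), and none fell except 1 after quantile normalization. The lists share members, so their counts are not separate. Rarb, and Nrip1 among the coregulators, were already counted as classical targets. Nr1d1 and Nr1d2 are counted again with the clock genes, and Nr4a1 and Nr4a2 with the immediate early genes. Nr4a2, an orphan receptor induced early by many signals, measured 3.91, 4.21 and 4.15 with retinoic acid and 3.26, 2.3 and 3.11 in control (1.19 ± 0.24, adjusted p = 0.00556). Nr3c1, the glucocorticoid receptor, rose by 0.52 ± 0.13 (adjusted p = 0.0227), a call lost under 8 of the 22 settings. Of 28 coregulators 8 rose (5 of 21 bright, 3 of 6 dim), with 7 or 8 rising under every other scaling and 2 falling only after quantile or loess normalization. Tbl1xr1, an exchange factor of the NCoR corepressor complex, measured 6.92, 6.88 and 6.93 with retinoic acid and 5.58, 5.26 and 6.29 in control (1.2 ± 0.20, adjusted p = 0.00133). Nrip1, a ligand-dependent corepressor, rose by 1.39 ± 0.16 (adjusted p = 5.62e-05), and the coactivators Ncoa7 and Ncoa3 rose by 0.71 ± 0.15 (adjusted p = 0.00627) and 0.55 ± 0.10 (adjusted p = 0.00284). Without single arrays 4 to 6 of the receptors and 6 to 8 of the coregulators rose, with 4 receptors without retinoic acid replicate 2.

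Part of the clock list rose. Of 18 circadian genes 5 rose, all among the 10 bright ones, and none fell, with a median change of 0.41 over the list, and the same counts came from all 4 other scalings. Bhlhe40, a repressor of clock-driven transcription, measured 8.02, 7.97 and 7.94 with retinoic acid and 6.91, 7.01 and 7.04 in control (0.99 ± 0.09, adjusted p = 2.06e-06). Nr1d2, the heme receptor Rev-erbβ, measured 6.17, 6.22 and 6.18 with retinoic acid and 5.43, 4.87 and 5.22 in control (1.02 ± 0.14, adjusted p = 0.000202). Per1, a negative limb gene of the clock, measured 6.86, 6.82 and 6.84 with retinoic acid and 5.95, 5.94 and 6.26 in control (0.79 ± 0.13, adjusted p = 0.000993). The remaining rises were Nr1d1 at 0.84 ± 0.19 (adjusted p = 0.0128, lost without retinoic acid replicate 2) and Hlf at 0.46 ± 0.10 (adjusted p = 0.0115). CACGTG, the letters bound by the clock activators, stood in the promoters of 29.4% of the 17 list members matched, against 7.15% of all promoters and 12.8% of those of bright genes, and in 1 of the 4 matched clock genes that rose, Per1.

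Relatives of Arrdc3 and Ehd3 were called in part. Of 8 arrestin genes, of which Arrb1 is a beta-arrestin, 4 rose (3 of 5 bright), 2 to 3 under the other scalings and without single arrays. Arrdc4, a dim relative, rose by 0.78 ± 0.15 (adjusted p = 0.0039), while the call of Txnip, the thioredoxin-binding member, at 0.37 ± 0.10 (adjusted p = 0.0366) was lost under 14 settings. Of 20 EHD and recycling genes 3 rose (2 of 11 bright, 1 of 9 dim) and 1 fell (1 of 11 bright). Ehd1, the close relative of Ehd3, went the other way, at 6.32, 6.54 and 6.49 with retinoic acid and 6.98, 7.08 and 7.16 in control (-0.63 ± 0.13, adjusted p = 0.00589). Rab11fip2, an effector of Rab11, rose by 0.81 ± 0.17 (adjusted p = 0.00714), and the list's rises numbered only 1 without retinoic acid replicate 2.

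Of 31 integrated stress response genes 8 rose (6 of 20 bright, 2 of 7 dim) and 2 fell. Ddit3, the stress factor CHOP, measured 4.83, 5.05 and 4.96 with retinoic acid and 3.99, 3.58 and 4.02 in control (1.08 ± 0.15, adjusted p = 0.000257). Slc7a11, the cystine importer, measured 4.99, 4.82 and 4.59 with retinoic acid and 3.59, 3.72 and 3.99 in control (1.03 ± 0.20, adjusted p = 0.00382). Asns, asparagine synthetase, measured 9.65, 9.62 and 9.69 with retinoic acid and 9.16, 9.10 and 9.30 in control (0.47 ± 0.10, adjusted p = 0.00708). Psat1 of serine synthesis went against the others at -0.31 ± 0.08 (adjusted p = 0.0307), and neither fall of the list passed after centring on the array median or on the receptor genes. The letters TGATGNAA stood in 30.8% of the 26 promoters of the list that were matched, against 2.35% of those of bright genes. They stood in 3 of the 8 that rose, Atf3, Asns and Slc7a11. Trib3, Chac1, Nupr1, Vldlr and Fgf21 hold them too and were not called, so the letters did not separate the genes that rose. Rises numbered 5 to 7 under the other scalings and 6 to 7 without single arrays. Among 59 amino acid transporters 6 rose (4 of 17 bright, 2 of 12 dim) and 2 fell (2 of 17 bright), the falls being lost without any 1 of the 6 arrays. Slc1a4, a carrier of serine and alanine, measured 6.10, 6.03 and 6.01 with retinoic acid and 4.97, 4.87 and 5.13 in control (1.06 ± 0.17, adjusted p = 0.00099). Slc6a15, a carrier of branched amino acids with its control mean below background, was at least 1.45-fold higher.

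The chaperone systems did not move as one. Of 34 endoplasmic reticulum chaperone and unfolded protein response genes 5 rose (5 of 24 bright) and none fell, 4 rising under each other scaling and 2 without retinoic acid replicate 2 or charcoal control replicate 2. Ero1a, the oxidase that forms disulfides, measured 9.42, 9.48 and 9.37 with retinoic acid and 8.48, 8.49 and 8.63 in control (0.89 ± 0.07, adjusted p = 4.04e-07). Hsp90b1, the resident Hsp90, measured 8.94, 8.96 and 9.0 with retinoic acid and 8.34, 8.34 and 8.41 in control (0.60 ± 0.07, adjusted p = 7.17e-05). Of 20 cytosolic heat shock genes none rose and 2 fell (1 of 11 bright, 1 of 7 dim), Hsph1 and Hspa8. Hspa8 changed by -0.48 ± 0.12 (adjusted p = 0.0237), and neither gene passed without retinoic acid replicate 1. The 3 other probe sets of Hspa8 changed by -1.04 to -0.86, and 2 of them passed when all probe sets were fitted. After quantile or loess normalization 1 heat shock gene rose.

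Of 32 hypoxia and glycolysis genes 4 rose (4 of 22 bright) and none fell. P4ha1, a collagen prolyl hydroxylase, measured 7.39, 7.32 and 7.26 with retinoic acid and 6.66, 6.56 and 6.53 in control (0.74 ± 0.09, adjusted p = 7.17e-05). Slc2a1, the glucose transporter GLUT1, rose by 0.41 ± 0.07 (adjusted p = 0.000991), and Hif1a by 0.48 ± 0.11 (adjusted p = 0.0109). Each other scaling gave 3 rises, and 2 genes rose without retinoic acid replicate 2. None of 22 fatty acid oxidation genes passed the limma test, 2 having an unadjusted p under 0.05, and of 79 oxidative phosphorylation genes 1 fell.

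Calls were also counted in growth factor pathways. Of 42 TGFβ and BMP genes 7 rose (5 of 20 bright, 2 of 12 dim) and 1 fell, 6 rising under each other scaling. Smad3, the signal carrier of TGFβ, measured 7.40, 7.27 and 7.28 with retinoic acid and 6.6, 6.05 and 6.6 in control (0.90 ± 0.18, adjusted p = 0.00556). Skil, a brake on Smad activity, rose by 0.94 ± 0.20 (adjusted p = 0.00821), a call lost without retinoic acid replicate 1, when 4 of the list rose. Bmpr1a, a BMP receptor, rose by 0.61 ± 0.11 (adjusted p = 0.00338). Of 43 Wnt genes 5 rose (5 of 22 bright) and 1 fell, Fzd5 leading the rises and Nkd2, an antagonist of Dishevelled, falling by 0.81 ± 0.17 (adjusted p = 0.00871). Nkd2's fall did not pass after centring on the array median or on the receptor genes, and only 3 Wnt genes rose without retinoic acid replicate 2.

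Genes of MAP kinase feedback and the immediate early response were called in both directions. Of 38 such genes 4 rose and 6 fell (6 of 24 bright), and 3 fell without charcoal control replicate 3. The rises held 3 of 24 bright genes, near the 10.3% of all bright genes, and 1 of 12 dim ones. Phosphatases of MAP kinases stood on both sides. Dusp7, an ERK phosphatase, measured 7.98, 7.84 and 7.74 with retinoic acid and 8.51, 8.48 and 8.46 in control (-0.63 ± 0.11, adjusted p = 0.00163). Dusp16, a phosphatase of JNK and p38, measured 6.76, 6.88 and 7.0 with retinoic acid and 6.10, 5.76 and 6.00 in control (0.93 ± 0.13, adjusted p = 0.000244). Of the 6 falls none passed after centring on the array median and 1 after centring on the receptor genes, whereas 4 rises passed in both. In the Myc and Max network of 13 genes 3 fell (3 of 6 bright), Mlx, Max and Myc itself, and 1 rose (1 of 6 bright). Myc is also among the falls of the MAP kinase list, and 2 genes of the network fell after either centring. Max, the obligate partner of Myc, measured 5.43, 5.30 and 5.41 with retinoic acid and 6.22, 6.07 and 6.05 in control (-0.73 ± 0.11, adjusted p = 0.000655). Mlx, the partner of the glucose-sensing Mondo factors, measured 6.76, 6.89 and 6.77 with retinoic acid and 7.65, 7.59 and 7.65 in control (-0.82 ± 0.10, adjusted p = 7.17e-05), while Mlxip, 1 of those factors, rose by 0.78 ± 0.10 (adjusted p = 0.000129). Falls of Max and Mlx passed under all 22 settings. Of 24 Krüppel-like factors 4 rose (4 of 8 bright) and Klf16 fell, and the counts were the same under all 4 other scalings, with Klf9, a known hormone-responsive member, at 0.89 ± 0.17 (adjusted p = 0.00338).

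Receptors and junctions gave smaller sets. Of 52 ephrin and semaphorin genes 4 rose (4 of 17 bright), 3 under each other scaling and 2 without retinoic acid replicate 2. Epha2, another ephrin receptor kinase, measured 6.86, 6.74 and 6.71 with retinoic acid and 6.03, 5.99 and 6.05 in control (0.75 ± 0.10, adjusted p = 0.000202). Of 33 junction and epithelial-mesenchymal transition genes 3 rose (3 of 11 bright), Tjp1, Cldn3 and Snai1, and 1 fell (1 of 11 bright), Esrp2. Snai1 rose the most of the list, and 1 to 2 genes rose without single arrays. Cldn3, a tight junction claudin, measured 9.19, 9.14 and 9.22 with retinoic acid and 8.42, 8.40 and 8.45 in control (0.76 ± 0.08, adjusted p = 1.08e-05). Of 41 receptor tyrosine kinases and their ligands 3 rose (3 of 17 bright), Tgfa, Kit and Mertk, and 2 fell (2 of 17 bright), Ror2 and Erbb2. Ror2, a Wnt5a receptor kinase, measured 6.98, 6.69 and 6.63 with retinoic acid and 7.58, 7.62 and 7.57 in control (-0.82 ± 0.12, adjusted p = 0.00034). Erbb2, the mammary growth factor receptor, fell by 0.43 ± 0.10 (adjusted p = 0.0152), a call lost under 7 settings.

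All calls among ribosome biogenesis genes were falls on the deposited values and under the 4 other scalings. Of 55 such genes 9 fell (8 of 47 bright) and 46 were not called, with a median change of -0.19 over the list, 10 falling after quantile or loess normalization, 3 after centring on the array median and 4 after centring on the receptor genes. Leaving out single arrays gave 8 to 10 falls, and 2 genes rose when only the 6 arrays compared were fitted, 1 with array weights and 1 with the other choices of probe sets. Nop2, a nucleolar methyltransferase of ribosomal RNA, measured 7.03, 7.16 and 7.04 with retinoic acid and 8.17, 8.19 and 8.16 in control (-1.10 ± 0.08, adjusted p = 3.34e-07). Bop1, part of the PeBoW complex of the large subunit, measured 6.17, 6.47 and 6.32 with retinoic acid and 7.39, 7.36 and 7.43 in control (-1.08 ± 0.12, adjusted p = 4.35e-05). On the linear scale Nop2 was 2.14-fold lower and Bop1 2.11-fold lower. Ddx56, a nucleolar helicase, fell by 0.65 ± 0.10 (adjusted p = 0.000546), and the polymerase I subunits Polr1b and Polr1e fell by 0.54 ± 0.11 (adjusted p = 0.00661) and 0.61 ± 0.13 (adjusted p = 0.00931). The ribosomal proteins themselves gave 1 rise and 1 fall of 68.

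Small nucleolar and Cajal body RNAs, which guide ribosomal and spliceosomal RNA modification, fell in 12 of 79 (10 of 38 bright) and rose in 1, with a median change of -0.36. Falls numbered 15 after quantile or loess normalization, 9 after centring on the array median and 8 after centring on the receptor genes, and 9 to 13 without single arrays. Snora75, within an intron of the nucleolin gene, measured 5.31, 5.83 and 5.24 with retinoic acid and 6.86, 7.07 and 6.79 in control (-1.45 ± 0.31, adjusted p = 0.00848). Scarna6 fell by 0.99 ± 0.13 (adjusted p = 0.000211) and Snora16a by 1.10 ± 0.17 (adjusted p = 0.000593). Scarna2 rose by 0.37 ± 0.08 (adjusted p = 0.0126), a call lost without retinoic acid replicate 3. Most of these RNAs are cut from introns of host genes, and how far a probe set reads the host transcript was not tested.

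Elongation factors of RNA polymerase II moved in both directions. Of 32 such genes 6 fell (5 of 25 bright) and 2 rose, with 4 to 6 falls and 1 rise under the other scalings and 1 rise without any 1 of the 6 arrays. Nelfa, a subunit of the negative elongation factor, measured 5.88, 5.79 and 5.72 with retinoic acid and 7.16, 6.79 and 7.12 in control (-1.23 ± 0.15, adjusted p = 9.46e-05). Hexim1, which holds P-TEFb inactive, measured 4.70, 4.96 and 4.79 with retinoic acid and 6.18, 5.56 and 5.93 in control (-1.08 ± 0.19, adjusted p = 0.00233). Together with Cdk9 and Ppp1r10 the falls held both activators and inhibitors of pause release. Aff4, the scaffold of the super elongation complex, measured 8.46, 8.44 and 8.38 with retinoic acid and 7.65, 7.45 and 7.70 in control (0.83 ± 0.14, adjusted p = 0.00167). Among 30 SR and hnRNP splicing factors 3 fell (3 of 25 bright), and 6 after quantile or loess normalization, Srsf6 by 1.07 ± 0.11 (adjusted p = 1.61e-05) and Srsf2 by 0.85 ± 0.10 (adjusted p = 3.73e-05) the most. The median of that list was -0.04 as deposited and turned to 0.03 after centring on the array median and 0.02 after centring on the receptor genes.

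Calls among DNA replication genes were mostly falls. Of 47 replication genes 13 fell (12 of 42 bright) and 1 rose, with a median change of -0.28. Cdc6, which loads the replicative helicase, measured 5.43, 5.73 and 5.65 with retinoic acid and 6.53, 6.41 and 6.58 in control (-0.90 ± 0.11, adjusted p = 9.86e-05). Mcm5, a subunit of that helicase with its promoter printed above, measured 8.81, 8.91 and 8.93 with retinoic acid and 9.42, 9.32 and 9.37 in control (-0.49 ± 0.06, adjusted p = 0.000121). The catalytic and accessory subunits of polymerase alpha went opposite ways. Pola1, the catalytic subunit, rose by 0.66 ± 0.13 (adjusted p = 0.00421), a call lost after quantile normalization, and Pola2, the accessory one, fell by 0.71 ± 0.09 (adjusted p = 0.000101). Falls numbered 14 after quantile normalization, 12 after loess, 4 after centring on the array median and 5 after centring on the receptor genes. Falls over all genes were 452, 403, 90 and 102 under these 4 scalings, against 326 as deposited. Without single arrays 8 to 11 replication genes fell, 8 without retinoic acid replicate 1. The letters TTTGGCGC or TTTCGCGC stood in 34.2% of the 38 promoters matched, against 2.12% of those of bright genes, and in 5 of the 13 that fell. Pola1, the gene that rose, holds them too.

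Of 54 mitosis genes 11 rose (10 of 47 bright) and 4 fell (4 of 47 bright). Kif11, the motor of bipolar spindles, measured 7.76, 7.98 and 7.89 with retinoic acid and 7.06, 6.92 and 7.04 in control (0.87 ± 0.13, adjusted p = 0.000467). Cenpe, a kinetochore motor, measured 5.78, 5.47 and 5.36 with retinoic acid and 4.76, 4.61 and 4.88 in control (0.79 ± 0.13, adjusted p = 0.00139). Rises numbered 11 or 12 under the other scalings, whereas the falls of Bub3, Plk1, Cenpa and Cdc20, the largest of them -0.45, did not pass after centring on the array median or the receptor genes, and at most 2 genes of the list fell without any 1 array. Without retinoic acid replicate 1 or charcoal control replicate 2 there were 7 rises. TTTGAA stood in 71.1% of the 45 promoters matched, in 6 of the 10 matched genes that rose and in all 4 that fell, so the letters did not separate the directions. Among 29 cyclins, kinases and inhibitors 5 rose (5 of 23 bright), 3 without charcoal control replicate 2, and 1 fell (1 of 23 bright). The growth suppressor Rb1 rose by 1.21 ± 0.25 (adjusted p = 0.00589) and the kinase Cdk6 by 0.91 ± 0.11 (adjusted p = 9.84e-05), the most of the list. The fall was that of the inhibitor Cdkn1a. No gene of the list fell after centring on the array median or the receptor genes. None fell without any 1 of the arrays other than charcoal control replicate 2.

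Histone genes fell in 6 of 39 (6 of 11 bright) and rose in none, with 4 or 5 falls under the other scalings and 4 to 6 without single arrays. H1f5, a linker histone, measured 8.27, 8.28 and 8.21 with retinoic acid and 9.30, 9.33 and 9.18 in control (-1.01 ± 0.07, adjusted p = 1.08e-07). H2ac21 fell by 0.94 ± 0.13 (adjusted p = 0.00035) and H2bc12 by 0.66 ± 0.10 (adjusted p = 0.000538). Core histone genes are near-identical copies, so single members may share signal.

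Rises were also counted among chromatin enzymes, deubiquitinases and zinc finger factors. Of 51 histone modifiers and polycomb genes 10 rose (9 of 38 bright, 1 of 12 dim), between 4 and 7 under the other scalings and 3 without retinoic acid replicate 1. Jarid2, a polycomb partner, measured 7.65, 7.72 and 7.54 with retinoic acid and 6.84, 7.03 and 6.91 in control (0.71 ± 0.12, adjusted p = 0.00173). Of 50 USP deubiquitinases 7 rose (7 of 31 bright, none of 10 dim) and 1 fell, 5 or 6 rising under the other scalings and 3 without retinoic acid replicate 1, retinoic acid replicate 2 or charcoal control replicate 2. Usp47 measured 7.02, 7.06 and 6.91 with retinoic acid and 5.92, 5.62 and 6.09 in control (1.12 ± 0.18, adjusted p = 0.000782). Of 365 Zfp genes 23 rose (11 of 71 bright, 12 of 203 dim) and 2 fell, with 12 to 20 rises under the other scalings and 11 without retinoic acid replicate 2. Zfp267 rose by 1.41 ± 0.24 (adjusted p = 0.00146) and Zfp871 by 1.09 ± 0.15 (adjusted p = 0.000213).

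Called genes differed in genomic span by direction. Protein-coding bright genes were put in 5 equal groups by genomic span. The median change was -0.05, -0.01, 0.06, 0.13 and 0.22 for median spans of 5.37, 14.0, 25.8, 47.3 and 113 kb. The share of rises was 3.51%, 5.91%, 10.2%, 12.6% and 19.6% in the same order, and the share of falls was 7.53%, 6.34%, 4.28%, 2.06% and 1.03%. The order held after quantile normalization, with medians running between -0.12 and 0.14. Dim genes showed a smaller shift in the same sense, between -0.05 and 0.08. Among bright genes, against the same 3 control arrays, the medians were -0.11, -0.05, 0.02, 0.05 and 0.16 with GW1516. With TTNPB they were -0.03, -0.04, -0.02, 0.02 and 0.09, so a climb with span was not seen with retinoic acid alone. A chance deviation of these controls would enter the values of all 3 ligands alike. Retinoic acid minus GW1516 gave medians of 0.04 to 0.05, and retinoic acid minus TTNPB -0.01 to 0.15. In the longest bright group the retinoic acid arrays stood at 0.24, 0.26 and 0.16 above the control mean, and the control arrays at 0.04, -0.10 and 0.06, so no array overlapped. Bright genes that rose had a median span of 45.5 kb and those that fell 12.6 kb, against 25.1 kb for all bright genes. Coregulators (81.9 kb), TGFβ and BMP genes (53.6 kb), histone modifiers (52.3 kb) and deubiquitinases (50.8 kb) have long medians, and ribosome biogenesis genes (14.7 kb), histones (0.522 kb) and snoRNAs (0.083 kb) short ones. Arrestins (9.16 kb), Krüppel-like factors (11.3 kb) and stress response genes (16.5 kb) also had short medians and gave mainly rises. The elongation list, with a median of 26.4 kb near the 25.1 kb of all bright genes, gave mainly falls. The part of span in the group counts was not tested.

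**Figure D4:**
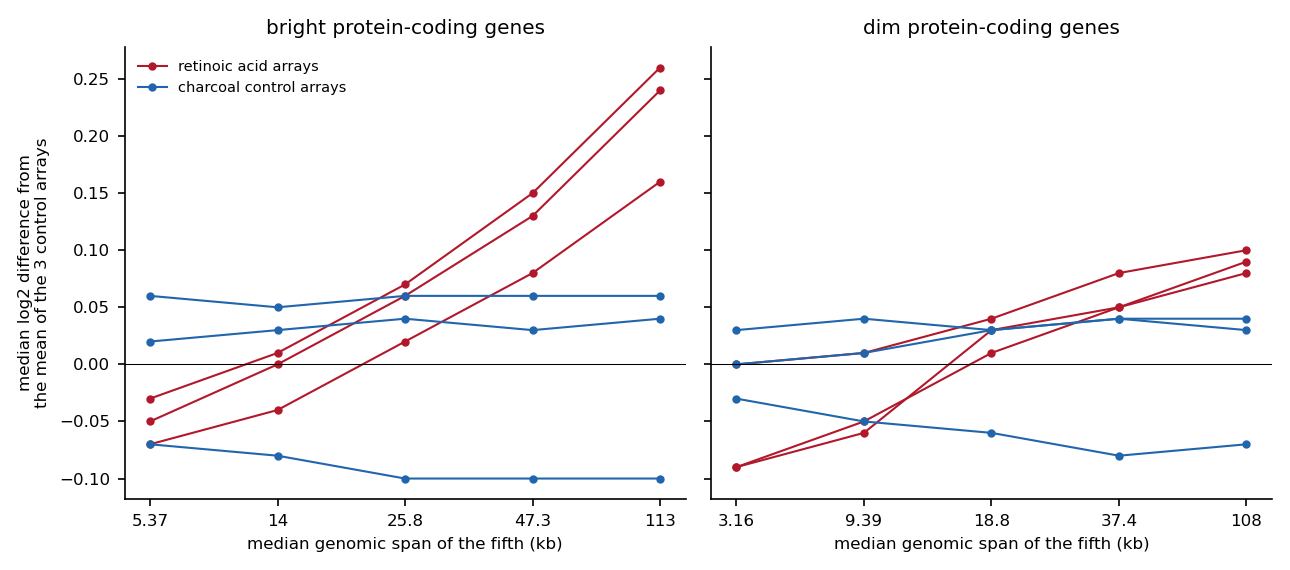
Median log2 difference from the mean of the 3 charcoal control arrays (vertical axis) in 5 groups of protein-coding genes ordered by median genomic span in kb (horizontal axis), for bright genes (left) and dim genes (right), 1 line for each array. The 3 retinoic acid lines climb with span to 0.24, 0.26 and 0.16 in the longest bright group, while the control lines end between -0.10 and 0.06.

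TTNPB and GW1516 were given at the same dose and for the same time, so each can be set against retinoic acid directly. Few genes differed. Retinoic acid and TTNPB differed in 34 genes (0.153%), 24 higher (0.108%) and 10 lower (0.0451%) with retinoic acid. Retinoic acid and GW1516 differed in 78 genes (0.352%), 63 higher (0.284%) and 15 lower (0.0676%). TTNPB is a benzoic acid retinoid that replaces the polyene chain of retinoic acid with aromatic rings, and GW1516 is no retinoid. Both comparisons were adjusted over all 22180 genes, and 16 genes differed in both, 14 of them higher and 2 lower with retinoic acid. All 16 had also changed against control, 10 of them bright and 6 dim.

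Gabrp measured 10.65, 10.63 and 10.68 with retinoic acid, against 9.96, 9.95 and 10.05 with TTNPB and 9.64, 9.68 and 9.72 with GW1516. The difference was 0.67 from TTNPB (95% interval 0.54 to 0.80, adjusted p = 2.81e-05) and 0.98 from GW1516 (0.85 to 1.11, adjusted p = 7.65e-08). The 4 groups stood in 4 separate bands, the control lowest. Dzip1 measured 5.07, 5.23 and 5.22 with retinoic acid, against 4.04, 3.88 and 4.20 with TTNPB and 4.09, 3.85 and 3.18 with GW1516 (differences 1.13, adjusted p = 0.00975, and 1.46, adjusted p = 0.00056). Map3k6 measured 5.22, 5.16 and 4.82 with retinoic acid, against 3.48, 3.54 and 4.30 with TTNPB and 3.56, 3.76 and 3.85 with GW1516 (1.29, adjusted p = 0.00677, and 1.34, adjusted p = 0.00263). Against control, Dzip1 and Map3k6 changed by 0.42 and 0.22 with TTNPB and by 0.09 and 0.17 with GW1516. H1f5 was lower with retinoic acid, by -0.55 from TTNPB (adjusted p = 0.00101) and -0.69 from GW1516 (adjusted p = 7.38e-05). The other genes of this set were Cyp26b1, Nrip1, Tc2n, Slc6a13, Ehd3, Akap12, Cd200, Cpd, Krtap5-2, Mlxip, Mx1 and Fdft1, the last being lower with retinoic acid. Against TTNPB only Cyp26b1, Gabrp, H1f5 and Tc2n of the 16 kept their call under all 9 settings run, and against GW1516 8 did. The count against TTNPB was 9, 13, 21 or 16 without retinoic acid replicate 1, 2 or 3 or TTNPB replicate 2. Against GW1516 it was 27, 28 or 40 without retinoic acid replicate 1, 2 or 3, and 122 or 136 without GW1516 replicate 1 or 2.

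**Figure D5:**
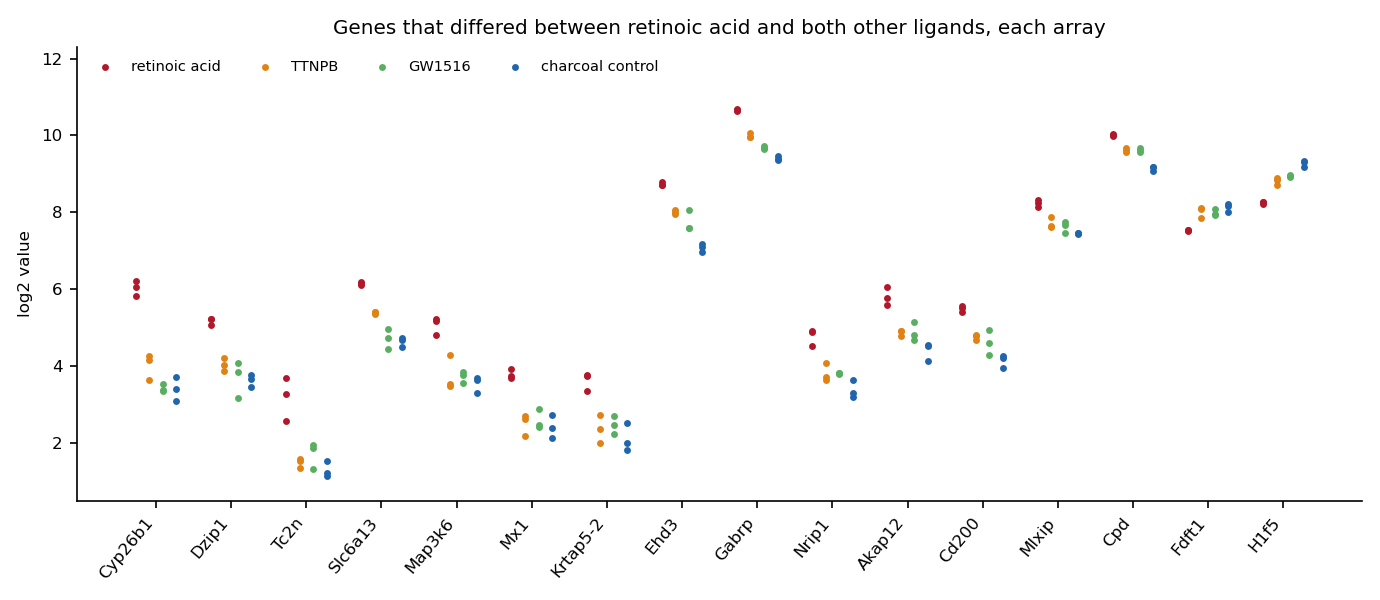
Log2 value of each array for the 16 genes that differed between retinoic acid and both other ligands, with retinoic acid, TTNPB, GW1516 and charcoal control from left to right within each gene. Retinoic acid lies highest in 14 genes and lowest in H1f5 and Fdft1, an order against TTNPB and GW1516 that follows from how the genes were chosen.

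Other leading changes did not differ between the ligands at this precision. Arrdc3 differed by 0.34 from TTNPB (95% interval 0.11 to 0.57, adjusted p = 0.395) and by 0.29 from GW1516 (0.06 to 0.52, adjusted p = 0.412). Postn differed by 0.57 from TTNPB (0.11 to 1.02, adjusted p = 0.532) and by 0.14 from GW1516 (-0.31 to 0.60, adjusted p = 0.864). Id4 differed by 0.19 from TTNPB (-0.28 to 0.66, adjusted p = 0.918). These intervals leave room for differences of more than 0.5 log2 units, so the test does not show that the ligands act alike. Fzd5 and Rarb lay between, higher than with GW1516 by 1.5 (adjusted p = 0.00125) and 1.02 (adjusted p = 0.00978), and not past the test against TTNPB at 0.93 (adjusted p = 0.105) and 0.65 (adjusted p = 0.221).

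Against the same 3 control arrays, which all ligands share, TTNPB changed 279 genes (1.26%), 137 rising (0.618%) and 142 falling (0.64%). GW1516 changed 570 genes (2.57%), 419 rising (1.89%) and 151 falling (0.681%). Nop2 changed by -1.10 with retinoic acid, -1.0 with TTNPB and -0.59 with GW1516. Bop1 changed by -1.08, -0.79 and -0.76 in the same order, and Nelfa by -1.23, -1.41 and -0.87. Kif11 changed by 0.87, 0.57 and 0.74, and Rb1 by 1.21, 0.95 and 0.81. Because a chance deviation of the shared controls would enter all 3 values alike, their likeness carries no weight of its own.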

How the data were processed

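RNA of NaF cells was hybridised to Affymetrix mouse arrays as biotinylated cRNA, per the labels' protocols. The authors deposited 1 table of log2 values for 41345 probe sets on 18 arrays, made with Partek, per the submitters' processing notes. Their range placed them on the log2 scale. How background was corrected and arrays were normalized is not given in the sources used here. No further scaling was applied to these deposited log2 values. The 6 arrays compared had medians of 1.19 to 1.36. The 6 arrays of full medium, used for the spread only, had medians of 0.547 to 0.605. Of the probe sets, 23521 had 1 gene symbol, 1814 had several and 16010 had none in the platform annotation, 23328 were updated through their Entrez identifier to RefSeq symbols, and 1082 genes had more than 1 probe set. The probe set with the highest mean over all arrays stood for the gene.

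Group means of all 18 arrays were fitted with limma 3.58.1 (R 4.3.3, 12 residual degrees of freedom, variance trend), and p-values were adjusted by Benjamini-Hochberg over 22180 genes for each contrast. In simulated data the test called 27.3% of changes of 0.5 log2 units, 88.1% of 1 and 98.5% of 2. There was 1 false call among 144. The noise was drawn separately for each gene, so deviations shared across an array were not tested. The replicate numbers of the 2 groups did not pair the arrays (correlations of deviations of -0.0271, -0.1432 and -0.2280). Members of the comparison and the 84 gene lists were chosen with earlier results of these data known. Genes were named by a rule. It took the 12 largest rises and 12 largest falls past an adjusted p of 0.05 without overlap in each of the bright and dim ranges, leaving out provisional names. It added the 6 largest calls of each list, every gene of lists of up to 12, the 3 largest at background, and Cyp26b1, Rarb, Nrip1 and Tgm2. Krt18, Krt8, Krt7, Cdh1, Epcam, Esr1, Cdh5, Pecam1, Cyp26a1, Dhrs3, Bub3, Plk1, Cenpa, Cdc20, Mcm5, Asns and Psat1 were named after their values were seen. Alternatives were other scalings, other sets of arrays, variance models, probe set rules, thresholds, a replicate block and leaving out arrays. The result of 1 gene list is not reported here.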

Additional observations from a re-analysis of the deposited data

How the results depend on the processing

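Over 22 settings, 139 of the 353 called genes that the naming rule or a later choice picked passed in every one, and none changed direction. The total of 1174 genes became 1852 with only the 6 arrays compared, 2014 with array weights, 749 and 735 after centring on the array median and on the receptor genes, 518 at an adjusted p of 0.01, and 706 with a fold of at least 1.5. It became 2015 without GW1516 replicate 3, and 583 to 932 without 1 of the 6 arrays compared. It became 1073 after quantile normalization. For retinoic acid against control, the single arrays left out were only the 6 compared and GW1516 replicate 3. Bright rises (618) became 1043 with only the 6 arrays, 284 at the stricter p, 367 with the fold, and 287 to 980 without single arrays. Bright falls (260) became 503 with only the 6 arrays, 67 and 74 after the 2 centrings, 502 with array weights, 123 at the stricter p, 108 with the fold, and 140 to 500 without single arrays. Dim rises (229) became 146 with the 12 charcoal-serum arrays, 121 after quantile normalization, 128 after loess, 362 with array weights, 96 at the stricter p, and 114 to 345 without single arrays. Dim falls (46) became 25 with the 12 charcoal-serum arrays, 15 and 18 after the 2 centrings, 160 with array weights, 93 with background genes left out, 13 at the stricter p, and 17 to 118 without single arrays. Retinoic acid differed from TTNPB in 34 genes, 9 to 24 without single retinoic acid or TTNPB arrays. It differed from GW1516 in 78, 39 after quantile normalization, 40 with the 12 charcoal-serum arrays and 27 to 136 without single retinoic acid or GW1516 arrays. Stricter thresholds lower counts by construction, and for the other changes the cause was not tested. Leaving out GW1516 replicate 3 was chosen after seeing the data. With the replicate number as a block the count was 1031, and the numbers did not pair the arrays. Of 3696 list counts under alternatives, 2744 stayed within 1.5 times and 952 moved. The number of arrays limits all counts, and dim genes had a median SE of 0.161 against 0.144 for bright ones.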

Other observations

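Of 39 mRNA decay and m6A genes 5 rose and 2 fell. The bright members gave 3 rises of 30, near the 10.3% of all bright genes, so the named genes are given as single values. Rises and falls varied, with 2 to 3 rises under the other scalings and 2 without retinoic acid replicate 1, retinoic acid replicate 2 or charcoal control replicate 2. The falls numbered 4 after quantile normalization and none without charcoal control replicate 1. Upf2, a scaffold of nonsense-mediated decay, measured 4.87, 4.73 and 4.51 with retinoic acid and 3.56, 3.31 and 4.05 in control (1.06 ± 0.16, adjusted p = 0.000546). Smg1, the kinase of that pathway, measured 5.92, 5.87 and 5.86 with retinoic acid and 5.33, 4.97 and 5.31 in control (0.68 ± 0.12, adjusted p = 0.00298).

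Genes of serine, one-carbon and nucleotide synthesis fell in 5 of 29 (5 of 25 bright) and rose in 3. The rises, 3 of 25 bright genes, were near the 10.3% of all bright genes. No gene of the list fell after centring on the array median, 1 fell after centring on the receptor genes and 2 to 3 fell without single arrays. Mthfd1, the trifunctional folate enzyme of the cytosol, measured 6.90, 6.86 and 6.77 with retinoic acid and 7.47, 7.34 and 7.51 in control (-0.60 ± 0.11, adjusted p = 0.00207). Mthfd2, its mitochondrial counterpart, went the other way at 7.90, 7.89 and 7.87 with retinoic acid and 7.43, 7.19 and 7.49 in control (0.52 ± 0.09, adjusted p = 0.00162). Slc25a36, a mitochondrial pyrimidine nucleotide carrier, rose by 1.07 ± 0.14 (adjusted p = 0.000152). In the NF-κB and cytokine list of 39 genes 3 rose (3 of 9 bright) and 2 fell (2 of 9 bright). There was 1 rise without retinoic acid replicate 2, charcoal control replicate 1 or charcoal control replicate 2. Rel, the c-Rel subunit, measured 5.27, 5.64 and 5.21 with retinoic acid and 4.15, 4.40 and 4.72 in control (0.95 ± 0.16, adjusted p = 0.00146), and Csf1, a macrophage growth factor, fell by 0.62 ± 0.13 (adjusted p = 0.00848).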
